A study of Homo sapiens with 10 samples.

Results

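Heparan sulfate genes made up 35 of the 35940 gene symbols in a table of gene counts from human pluripotent stem cells treated with activators of the canonical WNT pathway. They were matched by symbol, with no measured value in the rule, although the set was proposed with earlier results of these data known, and each had 1 Ensembl identifier in the table. By role they comprised 5 genes for chain polymerisation, 4 for N-deacetylation and N-sulfation, 5 for epimerisation and 2-O- and 6-O-sulfation, 7 for 3-O-sulfation and 2 extracellular 6-O-sulfatases. The core proteins comprised 6 glypicans, 4 syndecans and 2 secreted matrix proteoglycans. After the filter on low counts 32 of the 35 were tested, and NDST4, HS3ST6 and GPC5 were not.

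Heparan sulfate is a long sugar chain that is built in the Golgi on a core protein and then modified by an epimerase and by sulfotransferases that act on N, 2-O, 6-O and 3-O positions. The pattern of sulfate groups sets which secreted proteins the chain binds, among them WNT, FGF, BMP and NODAL family ligands. Glypicans and syndecans hold the chains at the cell surface, agrin and perlecan carry them in the matrix, and the SULF enzymes remove 6-O-sulfate after the chain has reached the surface. In pluripotent stem cells such chains are known as co-receptors for the growth factors that maintain the cells or start their differentiation.

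The cells were ESI017, a human embryonic stem cell line that the labels give as WT, so every result rests on 1 line. In all groups they were kept in mTeSR1, a defined medium for pluripotent cells, and were plated 24 h before treatment. The groups were WNT3A, the recombinant ligand, at 300 ng/ml for 18 h or 6 h, CHIR99021, a small molecule that inhibits the kinase GSK3, at 8 µM for 18 h or 6 h, and mTeSR1 alone. Each group had 2 libraries, 1 from each of 2 biological repeats, except CHIR99021 18 h, whose libraries both came from repeat 2. Those libraries are numbered 1 and 2 as names only, and whether they came from separate wells was not given. No time was given for mTeSR1 and no solvent control for CHIR99021, so that time in culture and solvent cannot be told apart from treatment. The 4 comparisons with mTeSR1 shared the same 2 control libraries.

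Library totals ranged over 1.66e+07 to 2.67e+07 estimated counts, and heparan sulfate genes took 0.225% to 0.301% of them. The log2 level of a gene relative to its mean over the 10 libraries was set against the length of its longest transcript. It rose with length in repeat 2 of WNT3A 6 h and of mTeSR1 (Spearman's rho 0.448 and 0.349 across genes). The other 8 libraries lay between -0.293 and -0.0130. Of 10 pluripotency markers, 0 passed edgeR's quasi-likelihood test against mTeSR1 in each treatment, with 1 or 2 at an unadjusted p under 0.05. Primitive streak markers summed to 665 to 753 CPM after WNT3A 18 h, 352 to 457 after WNT3A 6 h, 288 and 728 in CHIR99021 18 h libraries 1 and 2, 103 to 150.1 after CHIR99021 6 h and 4.92 to 11.5 in mTeSR1, where TBXT, GSC and MESP1 were at 0. Of the 8 tested, 6, 1, 4 and 1 passed in that order of treatments, all higher. CPM here are counts scaled to 1000000 per library after TMM scaling of the totals, and 3 counts stood for 0.112 to 0.180 CPM before that scaling.

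Promoter sequences are shown for 4 members: GLCE and HS3ST2, which were lower at 18 h of either treatment, HS3ST5, which was lower at 6 h of WNT3A, and GPC6, the member with the largest positive change at 18 h of WNT3A. They are RefSeq sequences on build GRCh38.p14, read 5′ to 3′ on the strand of the gene, from 250 to 31 bases before the RefSeq start. Capitals mark the GC box GGGCGG or its reverse complement CCGCCC, and the TATA motif TATAAA or its reverse complement TTTATA. GLCE lies on the plus strand at chr15:69160385-69160604, HS3ST2 on the plus strand at chr16:22813912-22814131, HS3ST5 on the minus strand at chr6:114343054-114343273 and GPC6 on the plus strand at chr13:93226557-93226776.
GLCE: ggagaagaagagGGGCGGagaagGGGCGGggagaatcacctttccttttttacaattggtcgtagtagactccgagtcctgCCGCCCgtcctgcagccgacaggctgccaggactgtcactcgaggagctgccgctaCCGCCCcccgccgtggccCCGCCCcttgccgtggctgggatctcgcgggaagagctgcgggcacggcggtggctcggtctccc
HS3ST2: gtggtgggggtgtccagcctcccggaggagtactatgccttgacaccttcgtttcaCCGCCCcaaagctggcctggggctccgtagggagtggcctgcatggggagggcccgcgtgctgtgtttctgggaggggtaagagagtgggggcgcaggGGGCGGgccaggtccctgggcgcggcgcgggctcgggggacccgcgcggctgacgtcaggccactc
HS3ST5: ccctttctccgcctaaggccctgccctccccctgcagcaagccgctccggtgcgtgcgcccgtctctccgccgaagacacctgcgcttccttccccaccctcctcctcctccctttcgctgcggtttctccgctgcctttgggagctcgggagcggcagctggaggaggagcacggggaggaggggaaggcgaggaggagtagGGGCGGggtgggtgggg
GPC6: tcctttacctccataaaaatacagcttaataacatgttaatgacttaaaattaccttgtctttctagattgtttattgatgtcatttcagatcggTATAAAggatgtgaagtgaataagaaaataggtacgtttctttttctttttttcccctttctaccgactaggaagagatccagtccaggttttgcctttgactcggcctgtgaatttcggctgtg
The GLCE sequence held 5 GC boxes, that of HS3ST2 held 2, that of HS3ST5 held 1, and that of GPC6 held none but had 1 TATA motif. RefSeq windows of 300 bases, 250 before to 50 after a start, were found for 29 of the 35 members, with 37 windows in all. A GC box was present in 28 of the 37 windows, or 75.7%, against 45.0% of all 35116 windows in the table, and the median GC content was 68.7% in the members' windows and 58.7% in all. The GPC6 window had 40.0% GC. The TCF/LEF motifs CTTTGAA and CTTTGAT, searched on both strands, were in 0 of the 37 windows, against 4.43% and 2.62% of all windows. At rates that low few matches are expected in 37 windows, so the 0 does not show a lack of these motifs. Other forms of the motif were not searched. These are letter matches and not sites of binding.

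Against mTeSR1, the called changes among heparan sulfate genes were decreases in the edgeR model reported here, and they fell on chain-modifying enzymes and on syndecans. Under other settings GPC6 was called higher after WNT3A 18 h with the repeat as a block, HS3ST3B1 after WNT3A 6 h by DESeq2, with no filter on low counts or with block and length correction, and GPC2 after CHIR99021 18 h with only the 2 groups fitted. After WNT3A 18 h, GLCE and HS3ST2 were lower, which is 2 of 32 members, against 2.10% of all 15251 symbols called in either direction and 1.06% called lower. After WNT3A 6 h, HS3ST5 was lower, which is 1 of 32, against 0.433% of all symbols called and 0.0459% called lower. After CHIR99021 18 h, SDC2, GLCE, HS3ST2, HS6ST2 and SDC4 were lower, which is 5 of 32, against 2.78% called and 1.63% called lower. After CHIR99021 6 h, 0 of 32 passed, where 0.0197% of all symbols did. DESeq2 called 0 there, and 7 of 32 members had an unadjusted p under 0.05, against 4.74% of all symbols. After WNT3A 18 h, WNT3A 6 h and CHIR99021 18 h, 13.6%, 6.16% and 19.6% of all symbols had an unadjusted p under 0.05. For those treatments the number of members at that level is not given here. The 7 members therefore do not set CHIR99021 6 h apart from them.

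A gene was called where its Benjamini-Hochberg adjusted p by edgeR's quasi-likelihood test over all 15251 symbols was under 0.05. The model held the biological repeat as a block for comparisons with CHIR99021 18 h, and not for the others. The numbers of members called after CHIR99021 18 h and after the other treatments are therefore not from a like model. With the block, the WNT3A 18 h comparison held 6 members, adding SDC2, HS6ST1 and HS6ST2 as lower and GPC6 as higher, where 4.92% of all symbols were called, 2.86% lower and 2.07% higher. Without it, the CHIR99021 18 h comparison held 1, GLCE, where 1.19% were called and 0.525% called lower. The median log2 change of the 32 members was -0.17 after WNT3A 18 h, -0.06 after WNT3A 6 h, -0.13 after CHIR99021 18 h and -0.17 after CHIR99021 6 h, beside 0.02, 0.01, 0.02 and 0.01 for all symbols. In bulk RNA, fewer cells of a kind and less RNA per cell cannot be told apart.

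**Figure D1:**
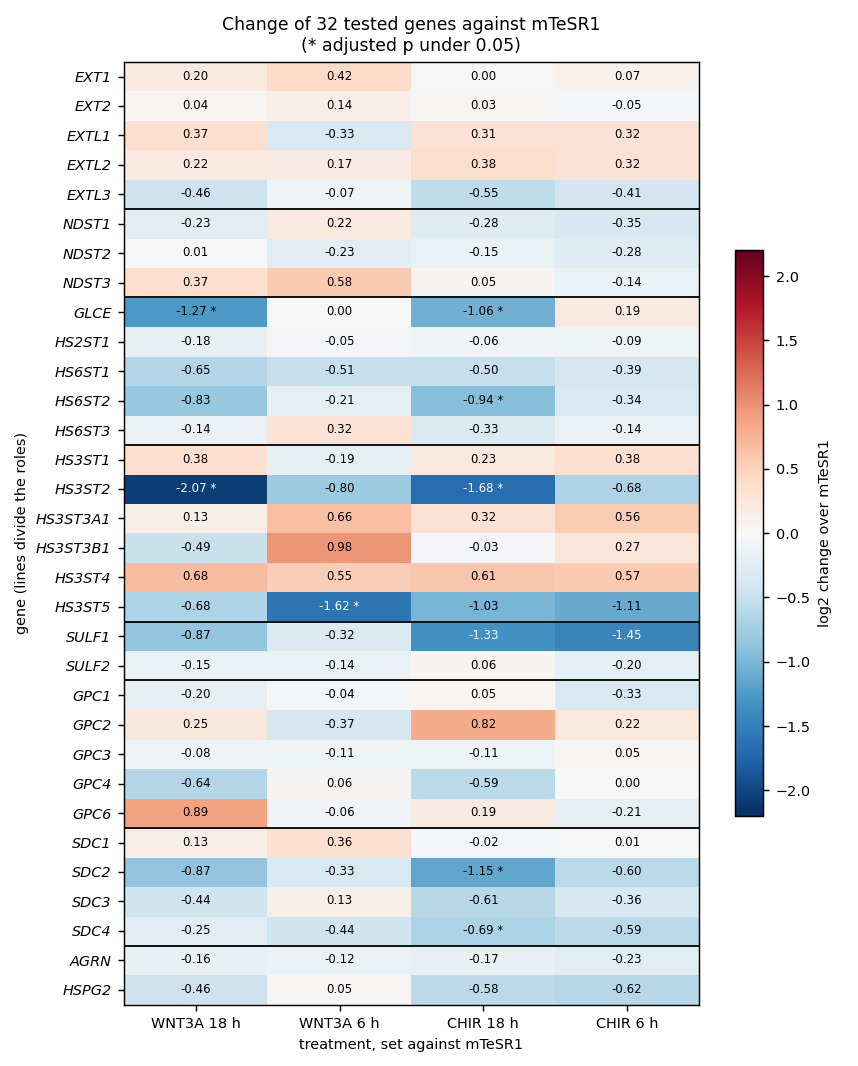
Log2 change of each of the 32 tested genes against mTeSR1 in the 4 treatments, with a star where the adjusted p was under 0.05 and lines between roles. The CHIR99021 18 h column is from the model with the repeat as a block and the others from that without it, so their stars are not on a like model. The 8 stars stand on negative values, and the epimerase and O-sulfation rows are negative in all 5 genes at 18 h of either treatment.

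The genes that polymerise the chain held no call. EXT1 and EXT2 form the polymerase that adds the repeating sugars, EXTL3 adds the sugar that commits the chain to heparan sulfate, and EXTL1 and EXTL2 transfer the same sugar. All 5 were tested, and 0 passed against mTeSR1 in each treatment by edgeR or by DESeq2, with 1 or 2 at an unadjusted p under 0.05. Log2 changes of EXT1 were 0.20, 0.42, 0.00 and 0.07 after WNT3A 18 h, WNT3A 6 h, CHIR99021 18 h and CHIR99021 6 h, and those of EXT2 were 0.04, 0.14, 0.03 and -0.05. EXTL3 had 43.3 ± 5.26 per-length CPM (counts per kb of exon, scaled to 1000000 per library) after WNT3A 18 h, 40.7 ± 2.93 after CHIR99021 18 h and 57.7 ± 12.0 in mTeSR1 (SD, n = 2 each). EXT2 had 49.7 ± 11.1 after WNT3A 18 h, 45.5 ± 3.91 after CHIR99021 18 h and 46.96 ± 1.27 in mTeSR1 on the same scale, so that by group means EXTL3 was the higher in mTeSR1 and WNT3A 6 h and EXT2 in the other 3 groups. The mTeSR1 libraries held 165 and 233 CPM of EXTL3, so that the spread within the control group was wide, and its log2 change after CHIR99021 18 h was -0.55 with an adjusted p of 0.140 by edgeR's quasi-likelihood test. EXTL2 had 46.2 to 55.1 CPM in the treated libraries, which all lay above the 44.9 and 40.4 in mTeSR1. EXTL1 was the lowest of the 5, between 0.567 and 1.40 CPM. Of the 31-base words of EXTL2 and EXTL3, 8.96% and 5.17% also occur in other genes.

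NDST1 held most of the RNA counted for N-deacetylation and N-sulfation, the step that must come before the other sulfations. NDST1 took 85.9% to 92.1% of the family per length over the 10 libraries. Its level was 221 and 216 CPM after WNT3A 18 h, 220.3 and 378 after WNT3A 6 h, 256 and 214 after CHIR99021 18 h, 197 and 205 after CHIR99021 6 h, and 191 and 322 in mTeSR1. The high values stood in the 2 libraries whose levels rose with gene length, NDST1 has 9529 bases of exon, and their part in the values was not tested. NDST2 lay between 9.96 and 16.9 CPM, but 81.8% of its 31-base words also occur in AC022400.6. Its counts are therefore uncertain, and so is the NDST1 share of the family. NDST3 lay between 0.649 and 1.53 CPM, and NDST4 had 1 count in 1 library and 0 in the other 9. Of the 3 tested genes 0 passed against mTeSR1 in each treatment by edgeR and 0 by DESeq2, and 0 reached an unadjusted p under 0.05.

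GLCE, the C5-epimerase that turns glucuronic acid into the more flexible iduronic acid in the chain, fell at 18 h of both treatments. Its level was 8.66 and 9.38 CPM after WNT3A 18 h, 19.5 and 24.0 after WNT3A 6 h, 11.3 and 10.2 after CHIR99021 18 h, 26.0 and 23.8 after CHIR99021 6 h, and 21.4 and 22.1 in mTeSR1. The 4 libraries at 18 h did not overlap with the other 6, and repeats of a group lay close together except at WNT3A 6 h. Against mTeSR1 it was 2.41-fold lower after WNT3A 18 h, a log2 change of -1.27 (SE 0.17, adjusted p = 0.0105 by edgeR), and 2.09-fold lower after CHIR99021 18 h, a log2 change of -1.06 (SE 0.17, adjusted p = 0.0179 by edgeR). After 6 h the log2 changes were -0.0018 for WNT3A and 0.19 for CHIR99021, and neither passed.

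GLCE was also the member called between times. WNT3A 18 h against WNT3A 6 h gave a log2 change of -1.27 (SE 0.17, adjusted p = 0.0438 by edgeR), 1 of 32 members against 0.144% of all symbols called and 0.0984% called lower. CHIR99021 18 h against CHIR99021 6 h gave -1.26 (SE 0.17) with an adjusted p of 0.148 by edgeR. DESeq2 called GLCE there, where it called 0.926% of all symbols. Within repeats the log2 ratio of WNT3A 18 h over mTeSR1 was -1.31 in repeat 1 and -1.24 in repeat 2, and that of CHIR99021 18 h over mTeSR1 was -1.04 in repeat 2. With any 1 library of its 2 groups left out, the GLCE log2 change after WNT3A 18 h stayed between -1.33 and -1.21 and its adjusted p lay between 0.0560 and 0.0860. For CHIR99021 18 h the adjusted p was 0.0364 without CHIR99021 18 h replicate 1, 0.147 without replicate 2, 0.0818 without mTeSR1 replicate 1 and 0.251 without mTeSR1 replicate 2. Between the WNT3A times the call was lost without WNT3A 18 h replicate 1 (adjusted p = 0.210), WNT3A 18 h replicate 2 (0.434) or WNT3A 6 h replicate 2 (0.155), all by edgeR.

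**Figure D2:**
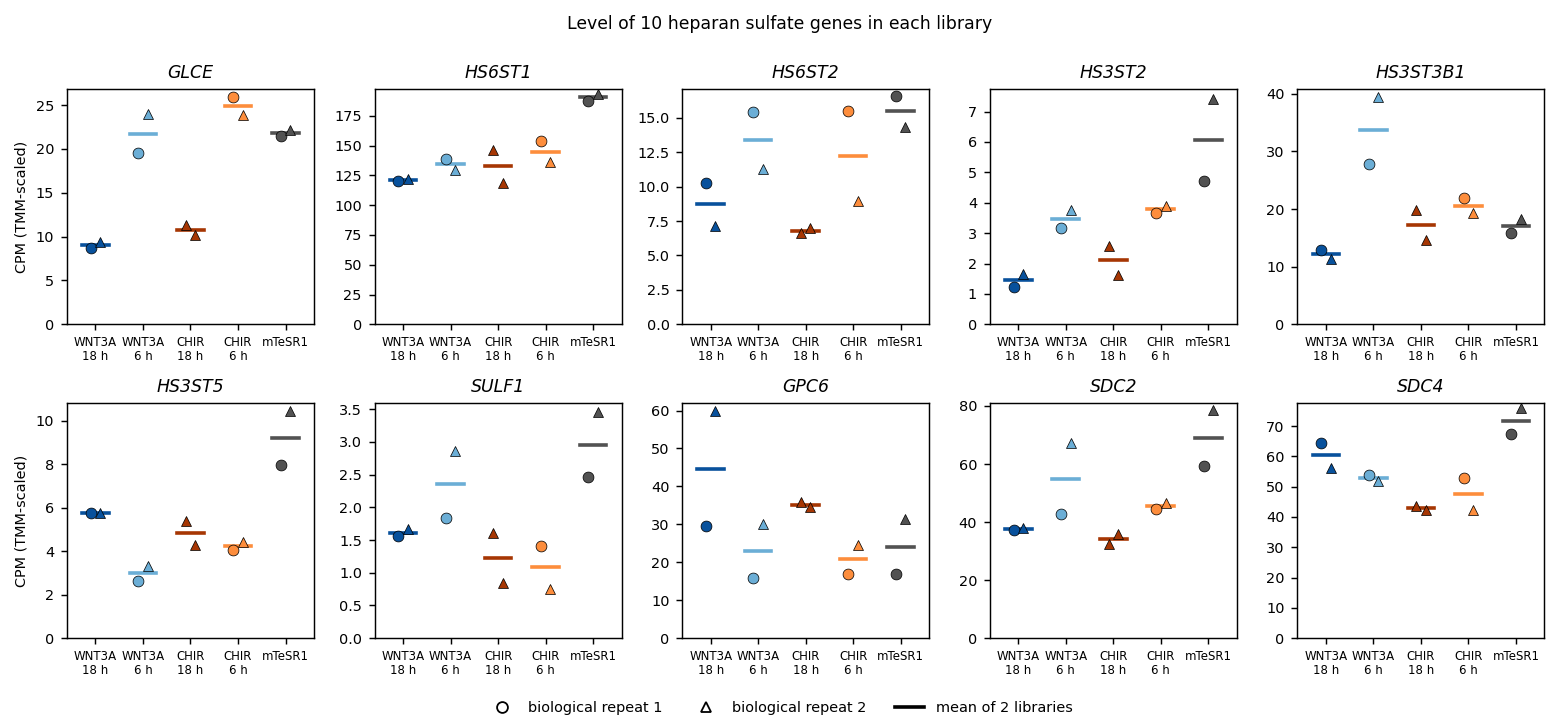
Level in CPM after TMM scaling of the 10 named heparan sulfate genes in each library, with circles for biological repeat 1, triangles for repeat 2 and a bar for the mean of 2 libraries; each panel has its own linear axis from 0. GLCE sits between 8.66 and 11.3 CPM in the 4 libraries at 18 h and between 19.5 and 26.0 in the other 6.

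HS6ST1, HS6ST2 and HS6ST3 add 6-O-sulfate, and HS2ST1 adds 2-O-sulfate to iduronic acid. HS6ST1 was the leading gene of the group per length, with 64.9% to 74.0% of it in every library. Its level was 120.5 and 122 CPM after WNT3A 18 h, 139 and 129.7 after WNT3A 6 h, 146 and 119 after CHIR99021 18 h, 154 and 136 after CHIR99021 6 h, and 188 and 194 in mTeSR1. The 8 treated libraries all lay under the 2 in mTeSR1. Its log2 change was -0.65 (SE 0.14) after WNT3A 18 h, with an adjusted p of 0.0570 by edgeR without the repeat as a block and 0.0265 with it. After WNT3A 6 h, CHIR99021 18 h and CHIR99021 6 h it was -0.51, -0.50 and -0.39 and did not pass. Of the 31-base words of HS6ST1, 18.0% also occur in the pseudogene HS6ST1P1, so its counts are uncertain by that share.

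HS6ST2 had 10.3 and 7.14 CPM after WNT3A 18 h, 15.4 and 11.3 after WNT3A 6 h, 6.62 and 6.996 after CHIR99021 18 h, 15.5 and 8.95 after CHIR99021 6 h, and 16.6 and 14.4 in mTeSR1. The 4 libraries at 18 h lay under both mTeSR1 libraries, and the 6 h groups were spread widely between repeats. It was 1.92-fold lower after CHIR99021 18 h, a log2 change of -0.94 (SE 0.20, adjusted p = 0.0460 by edgeR). Leaving out CHIR99021 18 h replicate 1 or 2 moved that adjusted p to 0.124 or 0.250, and leaving out mTeSR1 replicate 1 or 2 moved it to 0.0873 or 0.584. Without repeat 2 of both mTeSR1 and WNT3A 6 h the change was -0.62. After WNT3A 18 h the change was -0.83 (SE 0.30, adjusted p = 0.253), and with the repeat as a block it was -0.85 (SE 0.18, adjusted p = 0.0357), both by edgeR. The blocked calls of HS6ST1 and HS6ST2 after WNT3A 18 h were lost without any 1 of WNT3A 18 h replicates 1 and 2 and mTeSR1 replicates 1 and 2, with adjusted p-values of 0.119 to 0.239 for HS6ST1 and 0.0946 to 0.313 for HS6ST2. HS2ST1, which shares 9.48% of its 31-base words with other genes, did not pass, with log2 changes against mTeSR1 between -0.18 and -0.05, and HS6ST3 lay between 1.78 and 4.87 CPM.

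The 3-O-sulfotransferases, which add the rarest sulfate of the chain, included HS3ST2 and HS3ST5 among the called genes. HS3ST2 had 1.22 and 1.67 CPM after WNT3A 18 h, 3.16 and 3.77 after WNT3A 6 h, 2.57 and 1.64 after CHIR99021 18 h, 3.68 and 3.88 after CHIR99021 6 h, and 4.71 and 7.43 in mTeSR1. These came from 26 to 131 counts a library. All 8 treated libraries lay under the 2 in mTeSR1, and the 18 h groups lay under the 6 h groups. Against mTeSR1 it was 4.19-fold lower after WNT3A 18 h, a log2 change of -2.07 (SE 0.36, adjusted p = 0.0272 by edgeR), and 3.21-fold lower after CHIR99021 18 h, a log2 change of -1.68 (SE 0.31, adjusted p = 0.0330 by edgeR). After 6 h the changes were -0.80 for WNT3A and -0.68 for CHIR99021 and did not pass. Within repeat 2 the log2 ratios over mTeSR1 were -2.15 for WNT3A 18 h and -1.82 for CHIR99021 18 h, and in repeat 1 that of WNT3A 18 h was -1.94.

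The HS3ST2 call after WNT3A 18 h was lost with any 1 library of its groups left out. Leaving out WNT3A 18 h replicate 1 or 2 gave an adjusted p of 0.175 or 0.138, and it was 0.0539 without mTeSR1 replicate 1 and 0.157 without mTeSR1 replicate 2, by edgeR. For CHIR99021 18 h it was 0.0311 without CHIR99021 18 h replicate 1, 0.220 without replicate 2, 0.0836 without mTeSR1 replicate 1 and 0.495 without mTeSR1 replicate 2. Per length HS3ST2 made up 4.53% to 6.10% of the 3-O-sulfotransferase family after WNT3A 18 h, 6.37% to 7.64% after CHIR99021 18 h and 13.8% to 22.4% in mTeSR1.

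HS3ST5, which in biochemical work makes sites for antithrombin and for herpes simplex glycoprotein D, was called after WNT3A 6 h. It had 5.75 and 5.76 CPM after WNT3A 18 h, 2.64 and 3.34 after WNT3A 6 h, 5.37 and 4.29 after CHIR99021 18 h, 4.06 and 4.42 after CHIR99021 6 h, and 7.95 and 10.4 in mTeSR1. The WNT3A 6 h libraries were the lowest of all, and no treated library reached the mTeSR1 level. It was 3.06-fold lower after WNT3A 6 h, a log2 change of -1.62 (SE 0.26, adjusted p = 0.0403 by edgeR), with ratios of -1.59 in repeat 1 and -1.64 in repeat 2. Changes of -0.68 after WNT3A 18 h, -1.03 after CHIR99021 18 h and -1.11 after CHIR99021 6 h had adjusted p-values of 0.257, 0.0609 and 0.502. The WNT3A 6 h call was lost without WNT3A 6 h replicate 1 (adjusted p = 0.133), WNT3A 6 h replicate 2 (0.121), mTeSR1 replicate 1 (0.142) or mTeSR1 replicate 2 (0.242), by edgeR. With the repeat as a block HS3ST5 was again the 1 member called after WNT3A 6 h (adjusted p = 0.0150 by edgeR), against 1.10% of all symbols called and 0.184% called lower. WNT3A 18 h over WNT3A 6 h was 0.94 for HS3ST5 (SE 0.26, adjusted p = 0.194).

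HS3ST3B1 and HS3ST3A1 make closely related enzymes with near-identical catalytic domains. Of the 31-base words of HS3ST3A1, 22.5% also occur in HS3ST3B1, and 13.3% of those of HS3ST3B1 occur in other genes, so the counts of both are uncertain by those shares. HS3ST3B1 had 12.9 and 11.4 CPM after WNT3A 18 h, 27.9 and 39.4 after WNT3A 6 h, 19.8 and 14.7 after CHIR99021 18 h, 21.9 and 19.3 after CHIR99021 6 h, and 15.8 and 18.3 in mTeSR1. The WNT3A 6 h libraries were the highest of the 10 and the WNT3A 18 h libraries the lowest. WNT3A 18 h over WNT3A 6 h gave a log2 change of -1.47 (SE 0.23, adjusted p = 0.0616 by edgeR), and -1.46 (SE 0.22, adjusted p = 0.0222) with the repeat as a block, a fit in which 1.83% of all symbols were called, 1.26% lower and 0.570% higher. The blocked call was lost without WNT3A 18 h replicate 1 (adjusted p = 0.0501), WNT3A 18 h replicate 2 (0.205) or WNT3A 6 h replicate 2 (0.151), by edgeR. Against mTeSR1 it was 0.98 after WNT3A 6 h (SE 0.23, adjusted p = 0.166 by edgeR), where DESeq2 gave an adjusted p of 0.0185. The 6 h values differed by -0.71 between CHIR99021 and WNT3A (SE 0.22, adjusted p = 0.691 by edgeR).

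HS3ST3A1 was the leading 3-O-sulfotransferase per length by its mean over libraries, at 16.4 ± 0.07 per-length CPM after WNT3A 18 h, 15.9 ± 3.56 after CHIR99021 18 h and 14.7 ± 6.25 in mTeSR1 (SD, n = 2 each). HS3ST3B1 was the higher by group mean after WNT3A 6 h, at 24.5 ± 6.91 against 23.2 ± 5.58 for HS3ST3A1. In mTeSR1 repeat 2, HS3ST3A1 at 10.3 lay under HS3ST3B1 at 12.8 and HS3ST2 at 10.7. HS3ST3A1 did not pass in any comparison. HS3ST4 lay between 4.67 and 6.10 CPM in the treated libraries and at 4.55 and 2.78 in mTeSR1, and its log2 changes of 0.55 to 0.68 did not pass. HS3ST1, the main maker of antithrombin sites, lay between 1.09 and 2.68 CPM. HS3ST6 had at most 3 counts in a library.

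**Figure D3:**
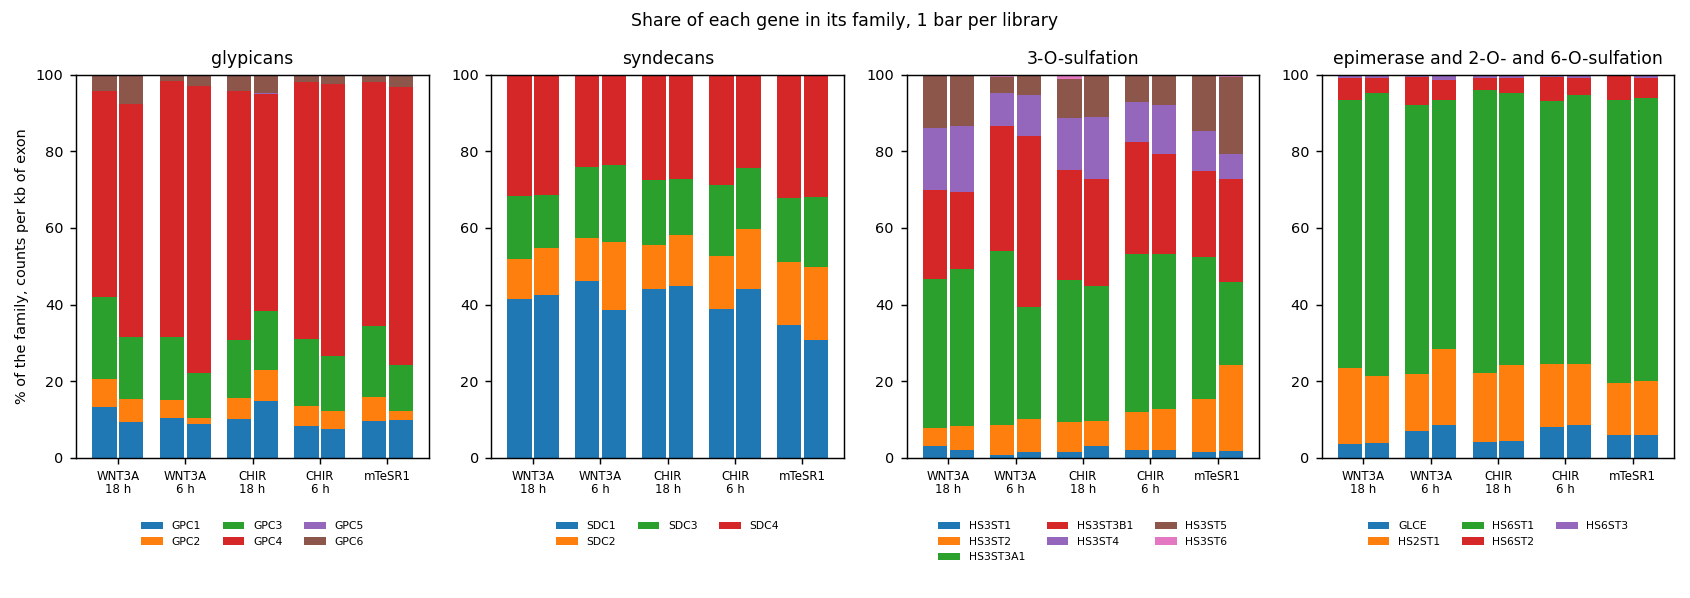
Share of each gene in its family in counts per kb of exon, 1 bar per library in repeat order (CHIR99021 18 h has both bars from repeat 2), for glypicans, syndecans, 3-O-sulfotransferases and the epimerase with 2-O- and 6-O-sulfotransferases. GPC4 holds 53.7% to 74.7% of the glypicans, HS6ST1 64.9% to 74.0% of its family, and HS3ST2 and HS3ST5 take their largest shares in mTeSR1.

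The 6-O-sulfatases were led by SULF2, which held 93.2% to 98.3% of the pair per length and lay between 24.1 and 36.3 CPM. SULF1 had 1.55 and 1.67 CPM after WNT3A 18 h, 1.84 and 2.87 after WNT3A 6 h, 1.61 and 0.846 after CHIR99021 18 h, 1.41 and 0.755 after CHIR99021 6 h, and 2.46 and 3.46 in mTeSR1. The lowest values stood in CHIR99021 libraries, CHIR99021 18 h overlapped with WNT3A 18 h, and WNT3A 6 h overlapped with mTeSR1. SULF1 is given because its mean change over the 4 treatments, -0.995, was the largest among members not called. After CHIR99021 6 h its log2 change was -1.45 (SE 0.47, adjusted p = 0.947 by edgeR), with 14 counts against 61 in mTeSR1 in repeat 2, and after CHIR99021 18 h it was -1.33 (SE 0.49, adjusted p = 0.187). The CHIR99021 18 h value was -1.86 without CHIR99021 18 h replicate 1, -0.94 without replicate 2, and -0.65 without repeat 2 of both mTeSR1 and WNT3A 6 h.

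Glypicans sit on the outer face of the membrane through a lipid anchor, and several are known to bind WNT ligands. GPC4 was the most abundant core protein gene per length, at 256 ± 30.2 per-length CPM after WNT3A 18 h, 412 ± 54.9 after WNT3A 6 h, 281 ± 64.8 after CHIR99021 18 h, 397 ± 26.5 after CHIR99021 6 h, and 390 ± 43.1 in mTeSR1 (SD, n = 2 each). Its CPM at 18 h, 286 and 361 with WNT3A and 422 and 304 with CHIR99021, lay under the 452 and 555 in mTeSR1. The log2 changes of -0.64 (SE 0.21) and -0.59 (SE 0.17) had adjusted p-values of 0.184 and 0.111 by edgeR.

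GPC6 was called higher after WNT3A 18 h with the repeat as a block, and was not called without it. It had 29.4 and 59.8 CPM after WNT3A 18 h, 15.9 and 30.1 after WNT3A 6 h, 35.9 and 34.5 after CHIR99021 18 h, 16.98 and 24.5 after CHIR99021 6 h, and 16.8 and 31.4 in mTeSR1. In every group with both repeats the library of repeat 2 was the higher, and the WNT3A 18 h group overlapped with mTeSR1 until compared within a repeat. Within repeats the log2 ratio of WNT3A 18 h over mTeSR1 was 0.81 in repeat 1 and 0.93 in repeat 2. With the block it was 0.87 (SE 0.15, adjusted p = 0.0142 by edgeR), and without it 0.89 (SE 0.43, adjusted p = 0.428). Over WNT3A 6 h the blocked change was 0.94 (SE 0.15, adjusted p = 0.0239). The blocked call against mTeSR1 was lost without WNT3A 18 h replicate 2 (adjusted p = 0.135), mTeSR1 replicate 1 (0.130) or mTeSR1 replicate 2 (0.145), with changes of 0.75 to 0.99 over the 4 libraries left out in turn. Without the block, the change was 1.31 or 0.29 when WNT3A 18 h replicate 1 or 2 was left out, and 0.49 or 1.40 when mTeSR1 replicate 1 or 2 was. The blocked call over WNT3A 6 h was lost with any 1 library of its groups left out, namely WNT3A 18 h replicates 1 and 2 and WNT3A 6 h replicates 1 and 2, with adjusted p-values of 0.0509 to 0.220. CHIR99021 18 h over WNT3A 18 h was -0.68 for GPC6 (SE 0.15, adjusted p = 0.900). Of its 31-base words, 6.93% also occur in AL354811.1.

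By edgeR over all 10 libraries the other glypicans did not pass in any comparison, with the repeat as a block or without. GPC3 lay between 45.1 and 72.2 CPM and GPC1 between 74.2 and 104. GPC2 had 27.5 CPM in repeat 1 of WNT3A 6 h and 34.1 in repeat 1 of mTeSR1, against 9.70 and 13.8 in repeat 2 of the same groups, the libraries whose levels rose with gene length. GPC5 had 0 to 7 counts a library. On the minus strand of chromosome X, 339 kb lie between HS6ST2 and GPC4 and 120.3 kb between GPC4 and GPC3, and GPC5 and GPC6 lie 353 kb apart on chromosome 13. GPC4 and GPC3 were not called after CHIR99021 18 h, where HS6ST2 was. HS3ST3A1 and HS3ST3B1 lie 699 kb apart on opposite strands of chromosome 17.

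Syndecans are transmembrane proteoglycans whose ends link to the cytoskeleton and whose shed forms carry ligands away. SDC2 had 37.3 and 38.0 CPM after WNT3A 18 h, 42.6 and 67.2 after WNT3A 6 h, 32.4 and 35.7 after CHIR99021 18 h, 44.6 and 46.7 after CHIR99021 6 h, and 59.2 and 78.7 in mTeSR1. Libraries at 18 h lay under all others, and WNT3A 6 h alone overlapped with mTeSR1. SDC2 was 2.22-fold lower after CHIR99021 18 h, a log2 change of -1.15 (SE 0.18, adjusted p = 0.0166 by edgeR). After WNT3A 18 h it was -0.87 (SE 0.22, adjusted p = 0.102), and -0.85 (SE 0.17, adjusted p = 0.0265) with the repeat as a block, a call lost without WNT3A 18 h replicate 2 (adjusted p = 0.213), mTeSR1 replicate 1 (0.122) or mTeSR1 replicate 2 (0.233). Without CHIR99021 18 h replicate 1 or 2 the SDC2 adjusted p was 0.0616 or 0.109, and without mTeSR1 replicate 1 or 2 it was 0.0719 or 0.305.

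SDC4, which sits in focal adhesions, had 64.6 and 56.1 CPM after WNT3A 18 h, 53.8 and 51.8 after WNT3A 6 h, 43.7 and 42.4 after CHIR99021 18 h, 52.8 and 42.3 after CHIR99021 6 h, and 67.5 and 76.0 in mTeSR1. The 8 treated libraries lay under both in mTeSR1. It was 1.61-fold lower after CHIR99021 18 h, a log2 change of -0.69 (SE 0.15, adjusted p = 0.0470 by edgeR), and -0.25 (SE 0.15, adjusted p = 0.546) after WNT3A 18 h. Within repeat 2 the log2 ratio of CHIR99021 18 h over mTeSR1 was -0.82 for SDC4 and -1.21 for SDC2. The SDC4 adjusted p was 0.118 or 0.337 without CHIR99021 18 h replicate 1 or 2 and 0.0770 without mTeSR1 replicate 1, and without mTeSR1 replicate 2 its log2 change was -0.46 with an adjusted p of 0.641. Without repeat 2 of both mTeSR1 and WNT3A 6 h the SDC4 change was -0.39.

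SDC1 did not pass, lay between 96.2 and 142 CPM, and was the leading syndecan per length by its mean over libraries, with 41.4% to 42.6% of the family after WNT3A 18 h, 43.9% to 44.8% after CHIR99021 18 h and 30.8% to 34.8% in mTeSR1. SDC3 had log2 changes of -0.44, 0.13, -0.61 and -0.36 after WNT3A 18 h, WNT3A 6 h, CHIR99021 18 h and CHIR99021 6 h and did not pass. Of the secreted proteoglycans, AGRN, which organises synapses and basement membranes, led per length with 62.6% to 81.7% of the pair, and its log2 changes lay between -0.23 and -0.12. HSPG2, or perlecan, had 219 and 399 CPM after WNT3A 6 h and 214 and 383 in mTeSR1, with the higher value in repeat 2 each time, and 193 to 224 CPM in the other 6 libraries. It has 18104 bases of exon, the most of the 35 members, and neither gene passed. Of the 31-base words of HSPG2, 10.9% also occur in LDLRAD2 and 11.7% in any other gene, and 4.18% of those of AGRN occur in other genes, so their counts are uncertain by those shares.

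**Figure D4:**
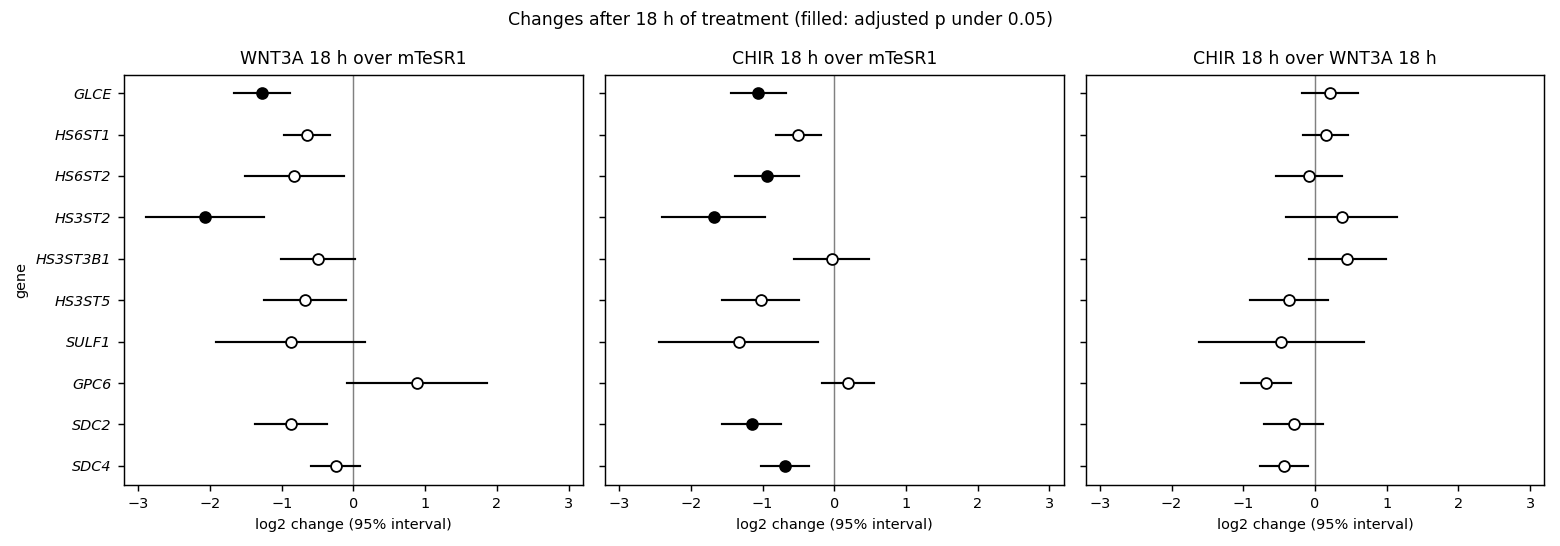
Log2 change and 95% interval of the 10 named genes at 18 h, with filled points where the adjusted p was under 0.05. WNT3A over mTeSR1 is from the model without the repeat as a block, and the panels with CHIR99021 from that with it. Interval widths and fills are therefore not on a like model. With the block, SDC2, HS6ST1, HS6ST2 and GPC6 were also called after WNT3A 18 h. GLCE and HS3ST2 are filled in both comparisons with mTeSR1, at -1.27 and -2.07 for WNT3A and -1.06 and -1.68 for CHIR99021, and no point is filled between the treatments.

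The treatments were then set against each other at matched times, although their doses are of different kinds and are not comparable. CHIR99021 18 h against WNT3A 18 h held 0 of 32 members by edgeR's quasi-likelihood test and 0 by DESeq2, and 0 of all symbols were called by edgeR. At an unadjusted p under 0.05 were 2 members, against 4.12% of all symbols. For GLCE the log2 difference was 0.21, with a 95% interval of -0.18 to 0.61. For HS3ST2 it was 0.37 with an interval of -0.41 to 1.15, so that a difference of over 2-fold is inside it. For SDC2 it was -0.30 (-0.72 to 0.12) and for SDC4 -0.43 (-0.77 to -0.10), and the adjusted p of each of the 4 was 1.00. CHIR99021 6 h against WNT3A 6 h held 0 members by edgeR and 0 by DESeq2, where 0.00656% and 0.197% of all symbols were called. By edgeR, 5 members and 6.53% of all symbols had an unadjusted p under 0.05. CHIR99021 18 h against CHIR99021 6 h held 0 members by edgeR, where 0.00656% of all symbols were called. DESeq2 called 1, GLCE, where it called 0.926% of all symbols. By edgeR, 6 members and 6.85% of all symbols had an unadjusted p under 0.05. The difference between the treatments in their change from 6 h to 18 h held 0 members by edgeR and 0 by DESeq2, with 4 members and 3.76% of all symbols at an unadjusted p under 0.05, and HS3ST3B1 had the largest at 1.15 (SE 0.32, adjusted p = 0.927).

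The rest of the pathway was read from 6 further lists. Genes of the linkage region and its precursor (7 tested), of sulfate donor and sugar nucleotide supply (10), of chain degradation (10) and of cell surface partners and processing (10) held 0 called in every comparison with mTeSR1 by edgeR, with at most 3 of a list at an unadjusted p under 0.05 and median log2 changes between -0.30 and 0.03. Of 6 tested part-time proteoglycans, which carry a chain only in some forms, CD44 rose after WNT3A 18 h. CD44 had 24.1 and 24.7 CPM after WNT3A 18 h and 8.16 and 10.3 in mTeSR1, a log2 change of 1.40 (SE 0.28, adjusted p = 0.0430 by edgeR). It had 15.9 and 23.1 CPM after WNT3A 6 h, 17.6 and 24.5 after CHIR99021 18 h, and 12.2 and 17.9 after CHIR99021 6 h. Every treated library thus lay above both in mTeSR1. Of 16 chondroitin and dermatan sulfate enzymes, DSEL, an epimerase that makes iduronic acid on that other chain, rose after WNT3A 18 h. DSEL had 165.6 and 162 CPM after WNT3A 18 h, 66.1 and 112.7 after WNT3A 6 h, 76.9 and 133 after CHIR99021 18 h, 37.9 and 46.2 after CHIR99021 6 h, and 23.7 and 51.3 in mTeSR1. WNT3A 18 h did not overlap with mTeSR1 and gave a log2 change of 2.13 (SE 0.41, adjusted p = 0.0389 by edgeR). The calls of CD44 and DSEL were not followed under the alternative settings or with libraries left out.

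Genes listed as markers of other cells also differed between groups, and their part in the changes of heparan sulfate genes was not tested. In mTeSR1 replicates 1 and 2, NES alone held 451 and 443 CPM of the neuroectoderm sum, and SOX1 held 0.105 and 0. SIX3 held 10.6 and 0 in these libraries, LHX2 2.98 and 0.170, PAX6 1.26 and 0, and DLK1 4.86 and 1.08. HES5 held 0.105 and 0, and ZBTB16 0.0523 and 0.0567. THY1 alone held 341 and 375 CPM of the fibroblast sum there. The endoderm marker SOX17 was at 0 in every group but WNT3A 6 h. Whether other cells were present was not tested. FOXA2, an endoderm marker, was the 1 of 3 tested endoderm markers called, higher at 18 h of either treatment, and the 6 endoderm markers summed to 6.03 to 9.15 CPM after WNT3A 18 h, 5.01 to 9.82 after CHIR99021 18 h and 1.52 to 1.59 in mTeSR1. Of 5 tested neuroectoderm markers 0 passed by edgeR, with 1 at an unadjusted p under 0.05 after CHIR99021 18 h, and the 8 markers summed to 259.6 to 410.2 CPM after WNT3A 18 h, 233 to 254 after CHIR99021 18 h and 444 to 471 in mTeSR1. Fibroblast markers summed to 424 to 447 CPM after WNT3A 18 h, 395 to 453 after CHIR99021 18 h and 578 to 686 in mTeSR1, with COL1A1 and THY1 lower at 18 h of either treatment, COL1A2 higher after WNT3A 18 h, and DCN at 0 in every group. Of 3 tested trophoblast or amnion markers GABRP was lower after CHIR99021 18 h, and the list summed to 14.7 to 19.1 CPM after WNT3A 18 h, 15.4 to 15.8 after CHIR99021 18 h and 19.2 to 19.4 in mTeSR1. WNT targets summed to 1162 to 1405 CPM after WNT3A 18 h, 1635 to 1706 after WNT3A 6 h, 831 and 1538 in CHIR99021 18 h libraries 1 and 2, 647 to 657 after CHIR99021 6 h and 259 to 317 in mTeSR1, with 6, 6, 7 and 1 of 11 called, all higher.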

How the data were processed

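RNA sequencing of 10 libraries in 5 groups was analysed from 1 table of estimated counts per Ensembl identifier that the authors deposited. Per the submitters' processing notes, Salmon 1.8.0 and build GRCh38 were used. Not given in the sources used here were the transcript set, the summing of transcripts to genes, filters and strand. The 37951 identifiers were summed to 35940 symbols and rounded to whole numbers. edgeR 4.0.16 in R 4.3.3 (TMM scaling, robust quasi-likelihood test, minimum count 10, minimum total 15, Benjamini-Hochberg adjustment over 15251 symbols) was fitted to all libraries at once. The method was tested on simulated data with 200 seeded genes. Alternatives were DESeq2 1.42.0, other scaling and filters, a fit per identifier, the repeat as a block, a length correction and leaving out libraries.

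Biological repeats pair the libraries, per the series' design text, and deviations from the group means correlated with Pearson's r of 0.261 to 0.595 over 6 pairs of groups. No replicates agreed within sampling noise (chi-square per degree of freedom 12.4 to 101). P-values measure the spread between libraries, which for CHIR99021 18 h may be technical.

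Levels are CPM on TMM-scaled totals, or counts per kb of GENCODE release 29 exons scaled to 1000000 where genes are compared. The 10 members that share over 4% of their 31-base words with other genes are given with that share. Members named with all values are those called with or without the block, filled up to 10 by mean change against mTeSR1. Members and lists were chosen with earlier results of these data known.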

Additional observations from a re-analysis of the deposited data

How the results depend on the processing

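Direction held in the 19 results on single members followed here, which were chosen for being called or, for SULF1, for the largest mean change. Direction was not counted for the other members. The NDST1 log2 ratio of WNT3A 18 h over mTeSR1, for example, was 0.21 in repeat 1 and -0.58 in repeat 2. Over 19 results on single members, 197 of 271 values under the alternatives kept their side of the threshold, 51 lost it, 23 gained it and 0 reversed; these include leaving out single libraries with the block, added after seeing the data. In what follows each count of members is given with the percentage of all symbols called in the same fit in brackets. Smaller shifts come first. The stricter filter on low counts gave 3 members (2.33%) for WNT3A 18 h over mTeSR1. For CHIR99021 18 h over mTeSR1, DESeq2 gave 7 (6.26%) and block with length correction gave 6 (5.18%). For WNT3A 18 h over mTeSR1, 2 members (2.10%) became 4 with the DESeq2 test (5.53%), 4 with no filter on low counts (2.58%), 6 with the replicate block (4.92%), 7 with the replicate block and length correction together (7.53%), 1 without repeat 2 of both mTeSR1 and WNT3A 6 h (0.821%, chosen after seeing the data), and 0 without any 1 library (0.338% to 0.478%). For WNT3A 6 h over mTeSR1, 1 (0.433%) became 2 with the DESeq2 test (1.63%), no filter (0.775%), or block and length correction (1.88%), and 0 with only the 2 groups compared (0.0135%), without both of those libraries (0.0641%), or without any 1 library (0.0829% to 0.446%). For CHIR99021 18 h over mTeSR1, 5 (2.78%) became 1 with no replicate block (1.19%), 2 per Ensembl identifier (1.61%), 9 with only the 2 groups compared (8.50%), 0 without both of those libraries (0.616%), and 0 to 3 without 1 library (0.0638% to 3.32%). For WNT3A 18 h over WNT3A 6 h, 1 (0.144%) became 2 with the DESeq2 test (2.72%) or no filter (1.23%), 3 with the replicate block (1.83%), 6 with block and length correction (3.78%), 0 per identifier (0.108%), with only 2 groups (0.00675%) or without both of those libraries (0%), and 0 to 2 without 1 library (0% to 0.643%). For CHIR99021 18 h over CHIR99021 6 h, 0 (0.00656%) became 1 with the DESeq2 test (0.926%), no filter (0.0940%), block and length correction (0.0852%), or without both of those libraries (0.186%), and stayed 0 without any 1 library (0% to 0.528%). The block or its removal changed no other call, and the other comparisons held 0 in every fit. Each family kept its leading gene per length by the mTeSR1 mean, 8 of 8, with the longest transcript as gene length. The cause of these changes was not tested, except that leaving out libraries leaves fewer samples and a lone library is assumed to vary like the other groups. Depth limits most the 3 untested members and, among those tested, EXTL1 (10 to 26 counts a library), NDST3 (12 to 39), HS3ST1 (23 to 57) and SULF1 (14 to 73), and with 2 libraries per group a member that did not pass is not shown to be unchanged.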

Other observations

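Summed per length, glypicans were the largest family by their mean in every group, syndecans came next and the 6-O-sulfatases were the smallest, while differences between groups in these totals were not tested. By its mean, the polymerisation family lay above the epimerase with the 2-O- and 6-O-sulfotransferases in both WNT3A groups. Its mean lay below after CHIR99021 6 h and in mTeSR1, and the means were level after CHIR99021 18 h, at 149.7 and 149.8 per-length CPM. Polymerisation genes summed to 143 to 170 after WNT3A 18 h, 163 to 181 after WNT3A 6 h and 149 to 151 after CHIR99021 18 h. They summed to 147 to 161 after CHIR99021 6 h and 152 to 164 in mTeSR1. The ranges of these families overlapped in every treated group and not in mTeSR1. Glypicans summed to 437 to 458 per-length CPM (counts per kb of exon, scaled to 1000000 per library) after WNT3A 18 h, 558 to 603 after WNT3A 6 h, 415 to 504 after CHIR99021 18 h, 563 to 586 after CHIR99021 6 h, and 564 to 579 in mTeSR1. Both 18 h groups lay under the mTeSR1 libraries. The epimerase with the 2-O- and 6-O-sulfotransferases summed to 135 to 150.1 after WNT3A 18 h, 159 to 171 after WNT3A 6 h, 137 to 163 after CHIR99021 18 h, 159 to 190.2 after CHIR99021 6 h, and 210.5 to 213 in mTeSR1, so that all treated libraries lay under mTeSR1. The 3-O-sulfotransferases summed to 40.0 to 42.3 after WNT3A 18 h, 59.9 to 66.1 after WNT3A 6 h, 37.8 to 49.5 after CHIR99021 18 h, 52.5 to 55.6 after CHIR99021 6 h, and 47.7 to 51.6 in mTeSR1, with both 6 h groups above mTeSR1.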
